A study of Homo sapiens with 4 samples.

Results

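CD44, CD24, NT5E, ALDH1A3 and PROCR are 5 genes used to mark stem-like cells of the breast. They were taken by gene name from the tables of all 4 plates, and they are 5 of 19568 gene rows found in at least 1 plate. All 5 were detected in every plate, and all 5 passed the filter on low counts.

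The cells were MCF10A_H2B_GFP, an untransformed human breast epithelial line that carries a green fluorescent histone. They were seeded as a circular patch of 10000 cells on glass coated with fibronectin and cultured for 6 days in medium with serum, EGF, hydrocortisone, cholera toxin and insulin. Living cells were phototagged by position with the dyes JF646 and JF549, sorted as live with DRAQ7 into plates of 384 wells and sequenced by SORT-seq, which counts the 3′ ends of transcripts with molecular identifiers (UMIs). In the low-resolution experiment the patch was tagged in rings of 1000 to 1500 µm, and in the high-resolution experiment the outermost 250 µm and the next 250 µm were tagged apart from the inside, with 2 plates per experiment. Both experiments shared the cell line, the coating, the medium and the culture time, and no plate was an untagged control. Which region a well came from was not analysed here, and the sort set how many cells of each region entered a plate.

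CD44 is the main hyaluronan receptor of the cell surface, and CD24 is a small glycosylated surface protein linked to the membrane by a lipid anchor. Cells with much CD44 and little CD24 on their surface are a classical stem-like fraction of breast tumors, and this fraction is often mesenchymal in character. NT5E encodes CD73, the surface enzyme that makes adenosine from AMP, and ALDH1A3 encodes a retinaldehyde dehydrogenase that contributes to the ALDEFLUOR activity used to isolate a more epithelial stem-like fraction. PROCR encodes the endothelial protein C receptor, a marker of mouse mammary stem cells.

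In the GENCODE v29 annotation of GRCh38, the build that the submitters' notes name as hg38, all 5 genes are protein coding. CD44 lies on chromosome 11 from 35138870 to 35232402 on the plus strand, and ALDH1A3 on chromosome 15 from 100877714 to 100916626 on the plus strand. NT5E lies on chromosome 6 from 85449584 to 85495791 on the plus strand, CD24 on the same chromosome from 106969831 to 106975627 on the minus strand, and PROCR on chromosome 20 from 35172073 to 35216240 on the plus strand. CD24 has processed pseudogenes elsewhere in the genome, and no source used here says how reads shared with them were counted, so its level is less certain.

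Promoters are shown for CD24, which went with CDH1 across cells, and PROCR, which went with FN1, because the 250 bases before their RefSeq start hold no annotated exon. Capitals mark GGGCGG, the GC box, and TATAAA, the TATA box, on either strand, so that CCGCCC and TTTATA are the same motifs read on the other strand. The CD24 stretch is chr6:106975628-106975877 on the minus strand, before the outermost of the 3 starts that RefSeq lists, and the PROCR stretch is chr20:35171822-35172071 on the plus strand, both in GRCh38.p14.
CD24: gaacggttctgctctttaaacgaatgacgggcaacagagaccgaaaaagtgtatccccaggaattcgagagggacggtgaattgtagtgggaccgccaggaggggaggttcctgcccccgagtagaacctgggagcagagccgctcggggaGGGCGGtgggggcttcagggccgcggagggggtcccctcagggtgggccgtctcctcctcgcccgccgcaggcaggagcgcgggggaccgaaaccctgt
PROCR: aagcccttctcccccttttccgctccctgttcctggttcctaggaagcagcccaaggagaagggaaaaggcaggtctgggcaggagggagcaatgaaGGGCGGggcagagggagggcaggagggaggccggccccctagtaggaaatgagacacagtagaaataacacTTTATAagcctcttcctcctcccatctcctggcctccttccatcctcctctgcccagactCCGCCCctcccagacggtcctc
The CD24 stretch held 1 GC box and no TATA box. The PROCR stretch held 2 GC boxes and 1 TATA box, whose first base lies 82 bases before the start. Over 35116 RefSeq promoter windows of 250 bases, 42.6% held a GC box and 10.7% a TATA box. The E-box CAGGTG was found in neither stretch, against 17.5% of all windows, and the AP-1 motif TGANTCA in neither, against 6.57% of all windows. The window before the innermost CD24 start, which is not printed and holds no annotated exon either, did hold 1 CAGGTG, 249 bases before that start, 1 GGAATG, the TEAD motif found in 11.9% of all windows, and 1 GC box. The windows of CD44, NT5E and ALDH1A3 overlap exons and are not printed; they held 2, 2 and 6 GC boxes.

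After the filter of 2000 to 9000 detected features and under 40% mitochondrial counts, 1146 of 1536 wells remained, between 271 and 293 per plate. The plates held 11709628 to 14992348 transcripts, and the median cell 30520 to 41248. The file names put low-resolution replicate 1 on another flow cell than the other 3 plates, so values without that plate are values within 1 flow cell. The labelled cell type was checked with 9 basal and 12 luminal marker genes, of which 9 and 11 were found in the data. KRT5 was detected in 99.6% to 100% of cells per plate, KRT14 in 43.9% to 77.3%, and TP63 in at most 4.12%. KRT7 had a UMI in every cell, and ELF5 and PGR had one in at most 0.738%. Of 8 listed markers each of fibroblasts, endothelium and immune cells, 7 were found in the data. Their summed levels stayed at or under 0.241, 0.259 and 0.757 counts per 10000 transcripts in every plate. CDH5, CD3E and COL1A2 were each detected in at most 0.738% of cells of a plate. Other members of these lists were detected more often, CD14 in 36.9% to 59.8%, PECAM1 in 28.5% to 47.1%, FAP in 10.7% to 31.1%, COL1A1 in 17.3% to 27.6% and CD68 in 18.6% to 27% of cells.

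CD24 was the most abundant of the 5 transcripts and PROCR by far the scarcest, and every one of them differed widely between cells of the same plate. Levels are counts per 10000 transcripts of a cell, averaged over cells, and are not scaled by gene length because only 3′ ends are counted. CD24 averaged 15.5 and 17.3 at low resolution, against 13.8 and 11.4 at high resolution. CD44 averaged 2.46 and 2.59, against 3.10 and 3.27. Both genes had a UMI in nearly every cell, CD44 in 95.5% to 99.0% and CD24 in 99.3% to 100% of cells.

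At low resolution NT5E averaged 1.30 and 1.43 counts per 10000 transcripts, while at high resolution it averaged 3.53 and 3.22. ALDH1A3 went the other way, with 2.58 and 2.07 at low and 1.19 and 1.37 at high resolution. PROCR averaged 0.0551 and 0.0432 at low resolution and 0.110 and 0.107 at high resolution. For each of the 5 genes the plates of the experiments did not overlap, which by summed counts was so for 57.3% of the 12429 genes tested below, and CD44, NT5E and PROCR were higher at high resolution while CD24 and ALDH1A3 were lower. Over the 4 plates, the mean levels were 14.5 ± 2.55 for CD24, 2.85 ± 0.392 for CD44, 2.37 ± 1.17 for NT5E, 1.8 ± 0.643 for ALDH1A3 and 0.0788 ± 0.0346 for PROCR (SD, n = 4). CD44, NT5E and ALDH1A3 are neighbours in this order whose plate values overlapped, since NT5E exceeded CD44 in high-resolution replicate 1 and ALDH1A3 exceeded it in low-resolution replicate 1.

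**Figure D1:**
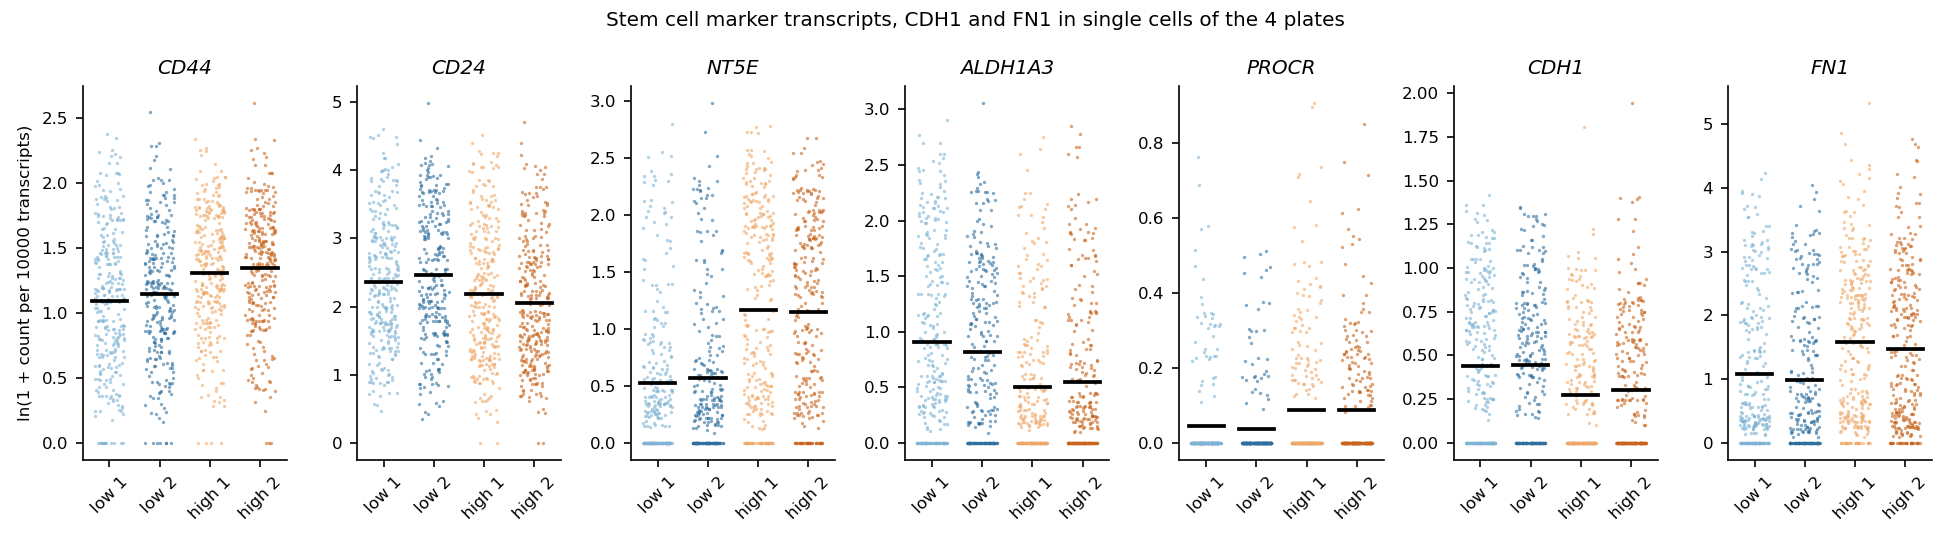
Level of each gene in single cells of the 4 plates (low 1 and 2, high 1 and 2, for the low- and high-resolution experiments), with CDH1 and FN1 for comparison. The y axis is the natural log of 1 plus the count per 10000 transcripts, each point is a cell and each black bar the mean over the 271 to 293 cells of a plate. NT5E, PROCR and FN1 sit higher in the high-resolution plates and ALDH1A3 and CDH1 lower, while cells of every plate span nearly the whole range.

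How unevenly NT5E and ALDH1A3 were spread over cells differed between the experiments. The tenth of cells with the most NT5E held 60.7% and 57.9% of its transcripts at low resolution, against 31.2% and 30.01% at high resolution. For ALDH1A3 the order was reversed, with 40.0% and 40.2% at low resolution and 57.1% and 56.5% at high resolution. The tenth of cells with the most CD44 held only 21.5% to 27.7% of its summed level. NT5E had a UMI in 61.9% and 67.2% of cells at low resolution and in 85.6% and 86.7% at high resolution, whereas ALDH1A3 had one in 75.6% and 72.3%, against 58.1% and 62.5%. PROCR had a UMI in 14.4% and 13.7% of cells at low resolution and in 28.2% and 33.4% at high resolution.

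These shares depend on depth, and wells with few features held the same transcripts. After each cell had been thinned to 10000 UMIs, NT5E was seen in 42.2% to 72.9%, ALDH1A3 in 39.1% to 59.2% and PROCR in 2.61% to 10.6% of cells. In the 222 wells with under 2000 features, where the median total per plate was 1914 to 5338 transcripts, NT5E had a UMI in 15.5% to 32% of wells, ALDH1A3 in 14% to 35.3% and PROCR in at most 2%. Their levels there were 0.304 to 1.63 counts per 10000 for NT5E and 0.342 to 0.903 for ALDH1A3. A single UMI of either gene in a cell is therefore not read here as expression.

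To ask whether the experiments differed beyond the spread between plates, counts were summed over the cells of each plate and compared with edgeR's quasi-likelihood test with Benjamini-Hochberg adjustment over 12429 genes. NT5E, PROCR and CD44 were higher at high resolution and ALDH1A3 lower. NT5E rose 2.23-fold, with a log2 fold change of 1.16 ± 0.107 (SE) and an adjusted p of 0.000127, the 10th smallest p of all genes. ALDH1A3 fell by 0.85 on the log2 scale (SE 0.123, edgeR adjusted p = 0.00128), which is 1.8-fold. PROCR rose as well, with a log2 fold change of 1.00 ± 0.214 and an adjusted p of 0.0111, and it rests on 51 to 165 UMIs per plate.

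CD44 rose by 0.36 ± 0.108 (log2, edgeR adjusted p = 0.0461), and this call was lost when any of the 4 plates was left out, with adjusted p-values from 0.0502 to 0.234. CD24 had a log2 fold change of -0.31 ± 0.139 and did not pass the threshold (edgeR adjusted p = 0.169). It passed without high-resolution replicate 1, with a log2 fold change of -0.55 and an adjusted p of 0.00715; that plate had the CD24 level nearest to the low-resolution plates. In all, 4 of the 5 genes were called, against 12.4% of all genes tested, with 6.25% called upward and 6.19% downward. The 5 genes were chosen with earlier results of these data known, so this count is not a test of them as a set. Beside them, FN1, the fibronectin gene and a mesenchymal marker, rose by 0.77 ± 0.112 (log2, edgeR adjusted p = 0.00128), and CDH1, which encodes E-cadherin and marks epithelial cells, fell by 0.68 on the same scale (SE 0.116, adjusted p = 0.00323).

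Within the flow cell that low-resolution replicate 2 shared with both high-resolution plates, the log2 fold changes were 1.10 for NT5E (edgeR adjusted p = 0.000839), -0.69 for ALDH1A3 (0.00705), 1.21 for PROCR (0.0124), 0.30 for CD44 (0.182) and -0.36 for CD24 (0.22). In that fit low-resolution replicate 2 stands alone and is assumed to vary like the other plates. In sums over a plate, more cells of a kind and more RNA per cell cannot be told apart, nor can the experiments be told apart from the makeup of regions that the sort gave each plate. The study calls the plates of an experiment biological replicates, so the p-values rest on the spread between 2 plates per experiment. The edgeR fit estimates this spread in part from all genes together. For a single value such as a mean level, an exact two-sided permutation test of 2 against 2 plates cannot give a p under 0.333.

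The 5 genes fell into 2 sets that opposed each other from cell to cell. CD24 and ALDH1A3 went with each other and with CDH1, while CD44 and NT5E went with each other and with FN1, and PROCR followed the second set weakly. All correlations are Spearman's rho across the cells of a plate, given as the mean of the 4 plates with the SD over plates. Cells of 1 plate share library, depth and free RNA, so these values are descriptions without a p. ALDH1A3 and NT5E had a rho of -0.587, -0.513, -0.559 and -0.591 in low-resolution replicates 1 and 2 and high-resolution replicates 1 and 2, a mean of -0.562 ± 0.0359.

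CD44 and CD24 had a mean rho of -0.476 ± 0.0618, from -0.555 to -0.405. CD44 and NT5E had a rho of 0.541 ± 0.0413, and CD24 and ALDH1A3 one of 0.636 ± 0.0297, the highest among the 5 genes. The rho of CD44 with ALDH1A3 was -0.545 ± 0.0265 and that of CD24 with NT5E -0.570 ± 0.0531. PROCR reached 0.331 ± 0.0615 with NT5E, 0.244 ± 0.0920 with CD44, -0.252 ± 0.0415 with CD24 and -0.254 ± 0.0705 with ALDH1A3. PROCR was at 0 in most cells, and the part of this in its correlations was not tested.

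**Figure D2:**
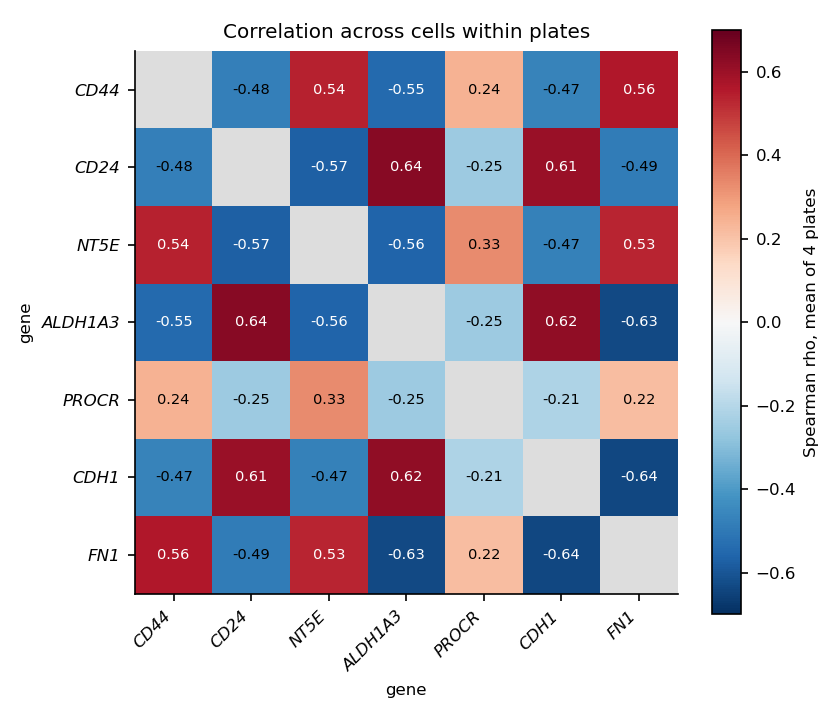
Spearman's rho between the 5 genes, CDH1 and FN1 across the cells of a plate, averaged over the 4 plates. Color and printed value give the mean rho, and grey cells are the diagonal. CD24, ALDH1A3 and CDH1 are positive with each other and negative with CD44, NT5E and FN1, with mean rho values between -0.635 and 0.636.

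With CDH1, the mean rho was 0.621 ± 0.0289 for ALDH1A3, 0.606 ± 0.0274 for CD24, -0.467 ± 0.0315 for CD44, -0.475 ± 0.0557 for NT5E and -0.214 ± 0.0280 for PROCR. With FN1, it was -0.634 ± 0.0370 for ALDH1A3, -0.490 ± 0.0588 for CD24, 0.560 ± 0.0297 for CD44, 0.531 ± 0.0472 for NT5E and 0.217 ± 0.0886 for PROCR. Every sign was the same in all 4 plates. Ranked with the 8026 genes seen in 20% or more of the cells of each plate, CD44 ranked 21st and NT5E 31st from the top for FN1, and ALDH1A3 ranked 12th and CD24 16th from the top for CDH1. For scale, 1.66% of those genes reached a rho of 0.3 with CDH1 in all 4 plates and 1.22% reached -0.3, while with FN1 these shares were 1.87% and 1.63%. The same shares were 1.21% and 1.25% with CD44, 1.83% and 1.52% with CD24, 2.48% and 1.64% with NT5E, 2.08% and 1.58% with ALDH1A3, and 0.0249% in each direction with PROCR.

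The same order was seen along a panel score, the mean z-score of 58 mesenchymal genes minus that of 55 epithelial genes, with the 5 genes left out. The score includes CDH1 and FN1, so it is not independent of the correlations with them. Its rho was -0.752 ± 0.0374 with ALDH1A3, -0.695 ± 0.0559 with CD24, 0.687 ± 0.0578 with NT5E, 0.624 ± 0.0306 with CD44 and 0.315 ± 0.0522 with PROCR. Other properties of the cells moved with these genes as well. The share of mitochondrial counts had a rho of -0.444 with NT5E, -0.344 with CD44, 0.335 with ALDH1A3 and 0.332 with CD24. A score of G2/M genes had a rho of 0.331 with NT5E, -0.328 with CD24, -0.202 with ALDH1A3 and 0.0867 with CD44. The total count of a cell had a rho of 0.269 with PROCR and 0.172 with NT5E, and between -0.0242 and 0.0268 with the other 3 genes. Given total count and mitochondrial share, the partial rho was -0.511 for ALDH1A3 with NT5E and -0.405 for CD44 with CD24.

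The genes most like each of the 5 were chosen by the highest mean rho. For NT5E they were MT2A, a metallothionein, EMP3, a membrane protein, and ANXA5, an annexin, with mean rho values of 0.726, 0.717 and 0.715. For ALDH1A3 they included FXYD3, a regulator of the sodium pump, and KLK5, a secreted serine protease, at 0.747 and 0.710. Those of CD24 included FXYD3 (0.717) and PERP (0.682), a desmosomal protein. CD44 was most like EMP3 (0.617), TIMP1 (0.587), an inhibitor of metalloproteinases, and MT2A (0.564).

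At the other end, FXYD3 was lowest for CD44 at -0.597, followed by AP1M2 at -0.580, and SLPI, a secreted protease inhibitor, was lowest for NT5E at -0.662, followed by FXYD3 and CLDN7. MT2A was lowest for CD24 at -0.688, ahead of EMP3 and ANXA5. TIMP1 was lowest for ALDH1A3 at -0.670, ahead of MT2A and EMP3. PROCR was most like TGFBI (0.353), EMP3 (0.346) and ITGB5 (0.341) and least like AZGP1 (-0.339), CTSD (-0.339) and SYT8 (-0.328), and NT5E ranked 7th of 8027 genes for it. These likenesses were computed over 4 plates among 8026 or 8027 genes.

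Surface protein and ALDEFLUOR activity were not measured, so the classes below rest on transcript levels and need not be the stem-like fraction defined by surface protein. CD44-high CD24-low cells were defined within each plate as cells above the plate's CD44 median and at or below its CD24 median. They made up 102 of 291 cells (35.1%) and 101 of 271 (37.3%) in the low-resolution plates, and 103 of 291 (35.4%) and 93 of 293 (31.7%) in the high-resolution plates. The product of the shares above and below the medians is 25%, so the share was 1.27 to 1.49 times that product, and its mean was 34.9% ± 2.30 (SD, n = 4). The exact binomial 95% intervals ran from 29.6% to 40.8%, 31.5% to 43.3%, 29.9% to 41.2% and 26.4% to 37.4%, and cover counting error only. The class is a range cut from continuous values, and 19.2% to 24.9% of cells lay within 0.1 natural-log units of a cut.

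Because each plate was cut at its own medians, these shares cannot compare the experiments. With 1 cut for all plates, the mean of the 4 medians, CD44-high CD24-low cells were 28.2% and 28% of cells at low resolution and 40.2% and 44.4% at high resolution, a cut added after the data had been seen. The opposite class, CD44-low CD24-high, made up 45% of both low-resolution plates, but 32% and 25.9% of the high-resolution ones. Neither class overlapped between the plates of the experiments, and with 2 plates each this difference was not tested. With the strict cut at quartiles, CD44-high CD24-low cells were 12.4%, 12.2%, 11.3% and 9.90% of the plates, against a product of 6.29% to 6.38%.

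CD44-high CD24-low cells carried more NT5E and FN1 and less ALDH1A3 and CDH1 than CD44-low CD24-high cells in all 4 plates. NT5E averaged 2.96, 3.19, 5.96 and 5.70 counts per 10000 in them, and 0.209, 0.250, 0.895 and 0.898 in the opposite class, in the order low-resolution replicates 1 and 2 and high-resolution replicates 1 and 2. ALDH1A3 averaged 0.486, 0.359, 0.159 and 0.167 against 4.61, 3.91, 2.79 and 3.27. So NT5E was 6.35 to 14.2 times higher and ALDH1A3 9.47 to 19.6 times lower in CD44-high CD24-low cells. Even the lowest NT5E plate of the first class stood above the highest plate of the second, and for ALDH1A3 the highest plate of the first class stood below the lowest of the second.

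FN1 averaged 11.5, 10.0, 12.8 and 12 counts per 10000 in CD44-high CD24-low cells against 1.02, 0.711, 3.97 and 1.72, and CDH1 0.206, 0.208, 0.0759 and 0.114 against 1.18, 1.13, 0.766 and 0.851. PROCR had a UMI in 28.4%, 27.7%, 46.6% and 37.6% of CD44-high CD24-low cells against 4.90%, 3.96%, 16.5% and 20.4%, with median totals per cell of 32099 to 43277 transcripts in the first class and 31513 to 37319 in the second. On the scale of the natural log of 1 plus the count per 10000, the mean differences over 4 plates were 1.57 ± 0.0604 for FN1, 1.09 ± 0.225 for NT5E, 0.0775 ± 0.0314 for PROCR, -0.516 ± 0.0606 for CDH1 and -1.09 ± 0.126 for ALDH1A3. Among 8025 genes, FN1 ranked 3rd and NT5E 9th from the top and ALDH1A3 13th from the bottom. For scale, 0.449% of genes differed by 0.5 or more upward in all 4 plates and 0.660% downward.

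The mitochondrial share moved with this split: its median was 26.4%, 29.1%, 28% and 26.1% in CD44-high CD24-low cells and 33.1%, 32.7%, 33.2% and 31.8% in the opposite class, and its part in the result was not tested. The 2 mixed classes lay between for NT5E. Cells high in both CD44 and CD24 numbered 34 to 53 per plate, and their FN1 level was 5.55 and 2.80 at low resolution but 14.9 and 18 at high resolution. Cells low in both, 35 to 54 per plate, had NT5E at 0.523 and 0.770 at low resolution and at 4.24 and 3.29 at high resolution. At high resolution the mean FN1 count of cells high in both exceeded that of CD44-high CD24-low cells of the same plates. On the natural-log scale used for the class differences the order was reversed. There FN1 averaged 1.85 and 1.92 in cells high in both, against 2.19 and 2.15 in CD44-high CD24-low cells. The FN1 excess of cells high in both therefore holds for mean counts only.

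**Figure D3:**
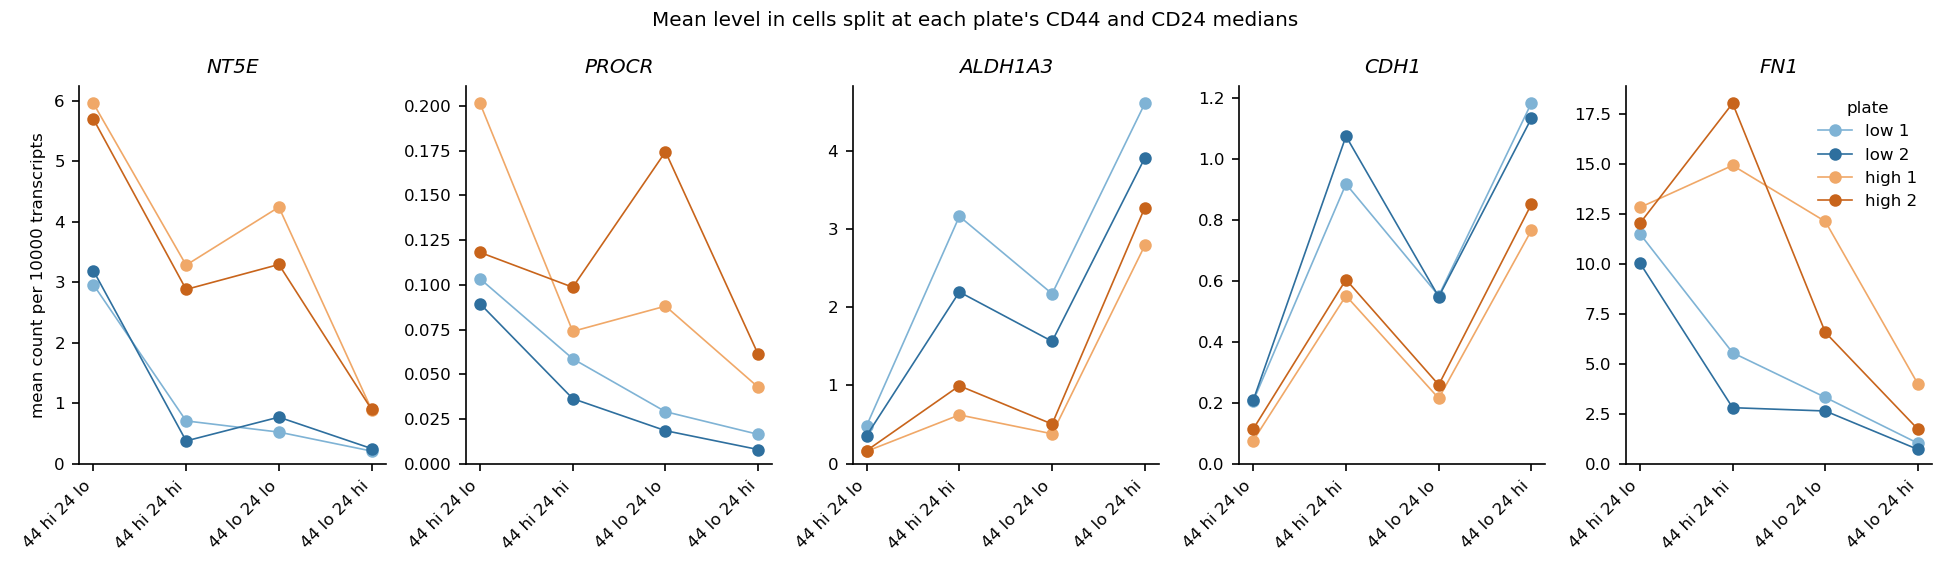
Mean level (counts per 10000 transcripts, axes from 0) of NT5E, PROCR, ALDH1A3, CDH1 and FN1 in the 4 classes of cells cut at each plate's CD44 and CD24 medians (hi, high; lo, low). Each point is a plate and lines join the classes of a plate. NT5E and FN1 are far higher and ALDH1A3 and CDH1 far lower in CD44-high CD24-low cells (left) than in CD44-low CD24-high cells (right) of all 4 plates.

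Few CD44-high CD24-low cells were also high in ALDH1A3. Of 399 CD44-high CD24-low cells, 21 were in the top ALDH1A3 tertile of their plate, 1 of 3 groups of equal size by level, a mean of 5.26% ± 1.18 (SD, n = 4). In CD44-low CD24-high cells this was 268 of 399, or 67.3% ± 6.08, and in the mixed classes 55 of 172 and 37 of 176. For NT5E the picture was turned around, with 263 of 399 CD44-high CD24-low cells in its top tertile (65.9% ± 2.66) and 23 of 399 in the opposite class (5.74% ± 1.96). By panel score, 258 of the 399 CD44-high CD24-low cells fell in the upper tertile of all cells, 131 in the middle tertile and 10 in the lower tertile.

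ALDH1A3 and NT5E were seldom high in the same cell. Cells in the top tertile of both numbered 3 of 291, 3 of 271, 6 of 291 and 3 of 293 in low-resolution replicates 1 and 2 and high-resolution replicates 1 and 2. This is 1.03%, 1.11%, 2.06% and 1.02% of cells, where the product of the shares is 11% to 11.1%. CD44 and NT5E shared their top tertile in 19.2% to 21.6% of cells, and CD24 and ALDH1A3 in 20.3% to 23.7%. CD44 and ALDH1A3 shared it in 1.72% to 3.41%, and CD24 and NT5E in 1.37% to 2.75%.

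Detection alone showed this opposition less. A UMI of both ALDH1A3 and NT5E was found in 42.3%, 43.5%, 46.4% and 51.2% of cells, against products of 46.8%, 48.6%, 49.7% and 54.1%. At 10000 UMIs per cell the shares were 15.7%, 15.3%, 17.3% and 20.6% against products of 25%, 25%, 27.5% and 29%, under the product in every plate. Cells with neither transcript were 14.3%, 14.9%, 7.75% and 7.90% at that depth. Cells with ALDH1A3 alone were 43.6% and 39.6% at low resolution and 21.8% and 19.2% at high resolution, and cells with NT5E alone 26.5% and 30.2% against 53.2% and 52.2%.

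**Figure D4:**
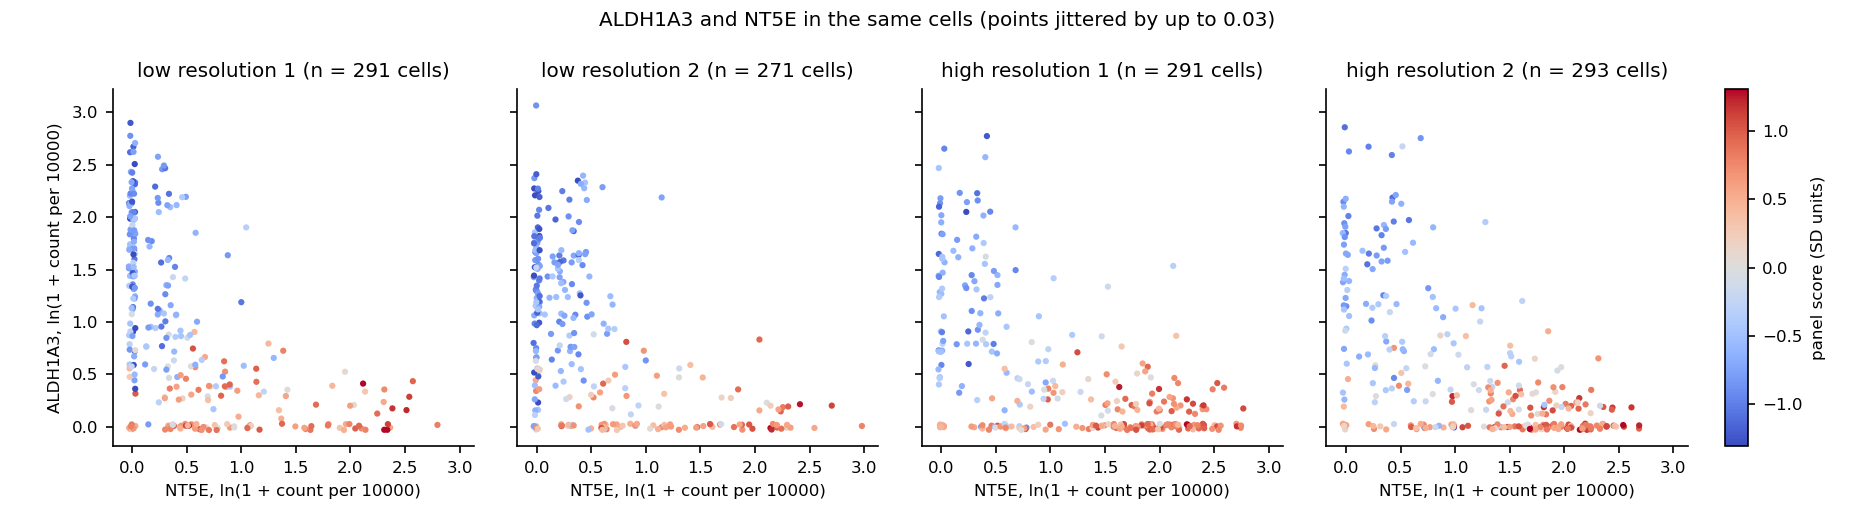
ALDH1A3 (y axis) against NT5E (x axis) in the cells of each plate, both as the natural log of 1 plus the count per 10000 transcripts, colored by the panel score (blue, epithelial; red, mesenchymal). Each point is a cell, jittered by up to 0.03. Cells follow one axis or the other, few lie at high values of both, and blue cells follow the ALDH1A3 axis and red cells the NT5E axis.

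From tertile to tertile of FN1, ALDH1A3 was lower and NT5E higher in every plate. Across the tertiles of cells with the least, middle and most FN1, ALDH1A3 averaged 4.41, 3.04 and 0.294 counts per 10000 in low-resolution replicate 1 and 3.57, 2.31 and 0.316 in replicate 2. In the high-resolution plates it averaged 2.59, 0.842 and 0.143, and 2.82, 1.07 and 0.191. NT5E across the same tertiles averaged 0.222, 0.858 and 2.80, then 0.284, 1.03 and 2.99 at low resolution, and 0.890, 4.06 and 5.63, then 1.40, 3.63 and 4.65 at high resolution. The plates shared this direction, and each tertile holds 90 to 98 cells.

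The question then was whether cells of like panel score still differed between the experiments. Cells of all plates were split into tertiles of the panel score, and the lower tertile held 41.2% and 48% of cells at low resolution and 22.7% and 22.5% at high resolution. The upper tertile held 27.1% and 22.9% against 43.6% and 38.9%. Scores were not fully matched within a tertile. In the lower one they averaged -0.867 and -0.876 at low and -0.791 and -0.774 at high resolution. In the upper one they averaged 0.824 and 0.781 against 0.847 and 0.886. The comparison within tertiles was added after the data had been seen, and counts were summed by plate within a tertile before the same edgeR test. The split took no account of the cell cycle. Over all cells of a plate, the mean G2/M score was -0.0783 and -0.17 at low and 0.0805 and 0.155 at high resolution. The mean S-phase score was -0.1 and -0.177 against 0.118 and 0.146, and NT5E had a mean rho of 0.249 with it. The part of the cell cycle in the differences within tertiles was not tested.

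NT5E still differed among cells of the middle tertile. It averaged 0.985 and 1.21 counts per 10000 at low resolution and 2.28 and 2.61 at high resolution, which did not overlap. Its log2 fold change there was 1.07 ± 0.140 (edgeR adjusted p = 0.000598), against 4.39% of 10540 genes called, 1.81% upward and 2.58% downward. In the lower tertile its levels were 0.204 and 0.233 against 0.332 and 0.415 (log2 fold change 0.83 ± 0.20, edgeR adjusted p = 0.124), where 0.255% of genes were called, 0.17% upward and 0.0851% downward. In the upper tertile they were 3.31 and 4.22 against 6.15 and 5.46 (0.41 ± 0.137, edgeR adjusted p = 0.147), with 2.44% of genes called, 1.02% upward and 1.42% downward. The lower-tertile call was gained without low-resolution replicate 1 (edgeR adjusted p = 0.0433) or high-resolution replicate 1 (0.0379), and the upper-tertile call without low-resolution replicate 2 (0.00636). A test of whether the NT5E difference itself differed between the tertiles, with plate as a block, gave an adjusted p of 0.118, and 0.547% of 11334 genes passed it.

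For ALDH1A3 no difference within the tertiles passed the test. In the middle tertile it averaged 1.28 and 0.826 counts per 10000 at low resolution and 0.909 and 0.849 at high resolution, so the plates overlapped, and its log2 fold change was -0.11 ± 0.159 (edgeR adjusted p = 0.756). The lower and upper tertiles gave -0.11 ± 0.145 (edgeR adjusted p = 0.799) and -0.41 ± 0.268 (adjusted p = 0.478). Without low-resolution replicate 1 the sign turned, to 0.12 in the lower and 0.11 in the middle tertile. With 2 plates a side, this does not show that the experiments are alike in these cells.

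CD44 had log2 fold changes of 0.21 ± 0.147, 0.17 ± 0.123 and -0.03 ± 0.120 in the lower, middle and upper tertiles, with edgeR adjusted p-values of 0.591, 0.501 and 0.937. CD24 had 0.17 ± 0.107 (edgeR adjusted p = 0.55), 0.51 ± 0.153 (0.0744) and -0.06 ± 0.140 (0.858), and its middle-tertile difference passed without low-resolution replicate 2 (0.0482) or high-resolution replicate 2 (0.00625). PROCR was too scarce for the test in the lower tertile and gave 1.09 ± 0.315 (edgeR adjusted p = 0.0675) in the middle and 0.06 ± 0.236 (0.917) in the upper tertile. The adjusted p for a difference between tertiles was 0.115 for CD24, 0.165 for PROCR, 0.637 for CD44 and 0.866 for ALDH1A3.

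**Figure D5:**
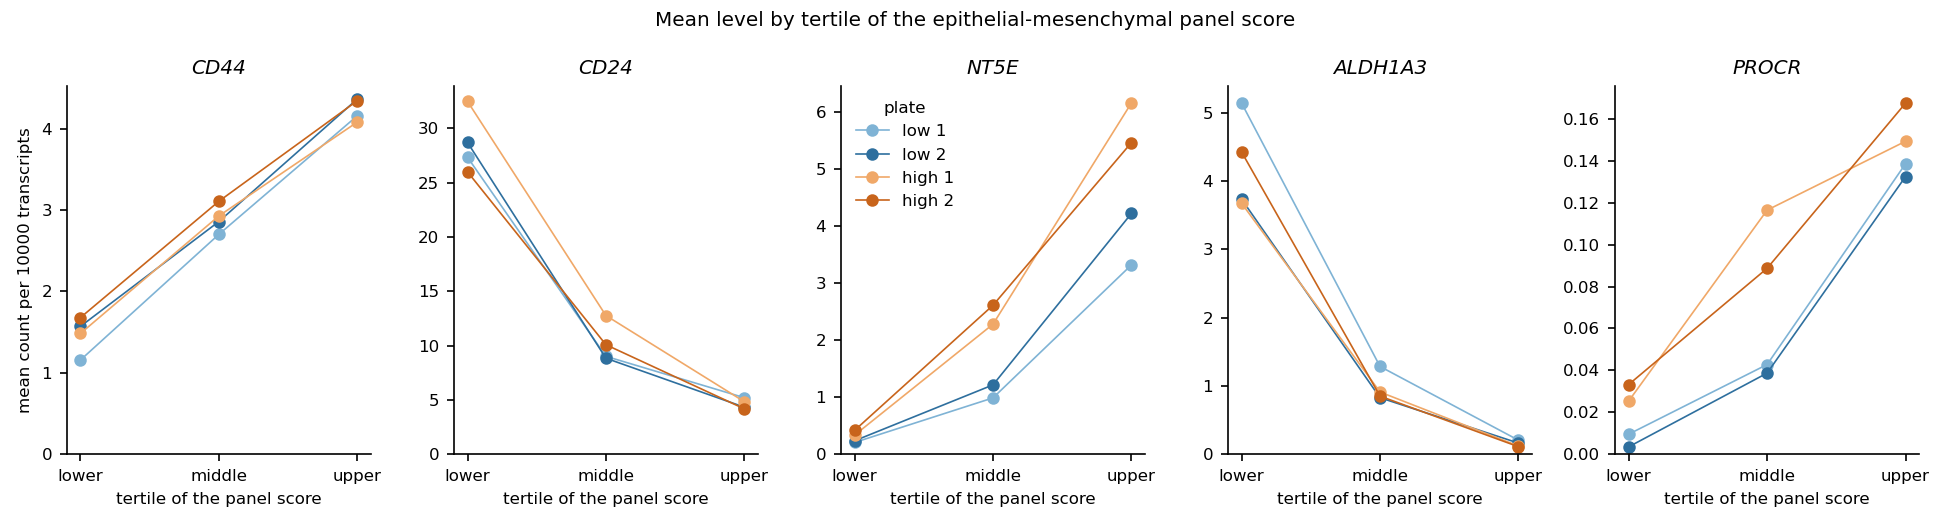
Mean level of the 5 genes (counts per 10000 transcripts, axes from 0) in cells of the lower (epithelial), middle and upper (mesenchymal) tertile of the panel score. Each point is a plate and lines join the tertiles of a plate. CD44 is higher and CD24 and ALDH1A3 are lower from left to right in every plate, and NT5E sits higher in the high-resolution plates, at 2.28 and 2.61 against 0.985 and 1.21 in the middle tertile.

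The correlations between the 5 genes were mostly smaller within a tertile of the score than across all cells. ALDH1A3 and NT5E had a mean rho of -0.310 ± 0.0488 in the middle tertile, negative in all 4 plates, against -0.177 ± 0.127 in the lower and -0.0348 ± 0.0977 in the upper tertile. CD24 and ALDH1A3 had a rho of 0.422 ± 0.0536 in the middle tertile, 0.252 ± 0.154 in the lower and 0.106 ± 0.0684 in the upper. CD44 and CD24 had -0.268 ± 0.0662 in the middle tertile and 0.00786 ± 0.236 and 0.00604 ± 0.0797 in the other two. CD24 and NT5E were at -0.329 ± 0.0405 in the middle tertile, -0.312 ± 0.127 in the upper and -0.0665 ± 0.0459 in the lower, negative in every plate.

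Cells with a PROCR UMI numbered 42, 37, 82 and 98 in the 4 plates. In low-resolution replicates 1 and 2 they averaged 4.08 and 4.43 counts of NT5E per 10000, against 0.825 and 0.955 in cells without one. In the high-resolution plates this was 5.23 and 4.12 against 2.86 and 2.77. CD44-high CD24-low cells made up 69%, 75.7%, 58.5% and 35.7% of the PROCR-positive cells and 29.3%, 31.2%, 26.3% and 29.7% of the others, and high-resolution replicate 2 stood nearest to no difference. A PROCR UMI is more likely in a deeper cell, as the rho of 0.269 between PROCR and total count shows, and the part of depth in these contrasts was not tested.

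Genes of the markers' pathways were counted next, and each count is to be read against the 12.4% of all genes called, 6.25% upward and 6.19% downward. Among 17 tested genes of 25 other stem and progenitor markers, 3 rose and 3 fell between the experiments (edgeR adjusted p under 0.05), with a median log2 fold change of -0.21 against -0.02 over all genes tested. ITGA6 and ITGB1, the integrin chains α6 and β1, rose by 0.50 (log2, edgeR adjusted p = 0.00861) and 0.37 (0.0365), and MUC1, a luminal mucin, had a log2 fold change of -0.59 (0.00949). MME, the surface peptidase CD10, had -0.88 (edgeR adjusted p = 0.00151), and BCL11B, a transcription factor, -1.04 (0.026). The tetraspanin CD9, among the most abundant of the list at 2.23 counts per 10000, had a rho of 0.603 with CDH1 and 0.623 with ALDH1A3, and ITGB1 one of 0.687 with FN1.

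Of 18 other aldehyde dehydrogenases, 14 were tested and 1 rose and 1 fell, close to the 12.4% of all genes called, with a median log2 fold change of -0.16. ALDH7A1 rose by 0.52 (log2, edgeR adjusted p = 0.011) and ALDH6A1 fell by 0.65 (0.0254). ALDH1A1, the other ALDEFLUOR enzyme often named in breast, had a UMI in 1.03% to 2.39% of cells and a mean level of 0.00491 counts per 10000, against 1.8 for ALDH1A3. ALDH3A2, ALDH3B1 and ALDH9A1, at 1.26, 1.03 and 0.926, were the most abundant beside ALDH7A1 at 1.31, and their rho with CDH1 lay between -0.188 and -0.0563. None of the 8 aldehyde dehydrogenases seen in at least 20% of cells reached a rho of 0.3 with CDH1 or FN1 in all 4 plates.

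Retinoid genes are the pathway in which ALDH1A3 acts. Of 11 tested, 2 fell and none rose, against 6.19% of all genes called downward, and the median log2 fold change was -0.31. RDH10, which makes the retinaldehyde that ALDH1A3 oxidizes, had a log2 fold change of -0.97 ± 0.125 (edgeR adjusted p = 0.000633), and DHRS3, which reduces retinaldehyde back to retinol, -0.93 ± 0.150 (0.00237). RDH10 averaged 0.575 and 0.622 counts per 10000 at low resolution and 0.282 and 0.290 at high resolution, without overlap. The receptor RARG and the reductase RDH11 had levels of 0.410 and 0.742 and were not called.

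In the adenosine pathway of NT5E, 8 of 13 genes were tested and 1 rose, close to the 12.4% of all genes called, with a median log2 fold change of 0.15. This was SLC29A1, the nucleoside transporter ENT1, which averaged 0.211 and 0.215 counts per 10000 at low resolution and 0.583 and 0.458 at high resolution (log2 fold change 1.21 ± 0.152, edgeR adjusted p = 0.000558). Its rho was 0.408 with NT5E. ENTPD1, which makes the AMP that CD73 uses, had a UMI in 5.12% to 10.3% of cells, while ENTPD2 averaged 0.203 and had a rho of -0.306 with NT5E. The kinase ADK (0.814) and the receptor ADORA2B (0.185) were not called.

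Among 13 tested genes of hyaluronan and CD44 biology, 2 rose and 2 fell, against 12.4% of all genes called, with a median log2 fold change of 0.27. MSN and EZR link CD44 to actin, and moesin (MSN) rose by 0.55 (edgeR adjusted p = 0.00915) while ezrin (EZR) fell by 0.43 (0.0303), on the log2 scale. HMMR, a second hyaluronan receptor, rose by 0.52 (0.0166), and ESRP1, which controls CD44 splicing, fell by 0.49 (0.0218). The mean G2/M score was also higher in both high-resolution plates than at low resolution. The part of the cell cycle in the HMMR rise was not tested. The rho with FN1 was 0.435 for MSN, -0.641 for ESRP1 and -0.00628 for HMMR. The hyaluronan synthases HAS1, HAS2 and HAS3 had a UMI in at most 6.83% of cells of any plate.

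Of 7 tested genes of the protein C system of PROCR, TFPI2 rose by 1.87 ± 0.563 (log2, edgeR adjusted p = 0.0487) and SERPINA5, the protein C inhibitor, fell by 1.14 (SE 0.175, adjusted p = 0.00178), with a median of -0.51 over the list. TFPI2 averaged at most 0.0308 counts per 10000 in any plate. Tissue factor, F3, was the most abundant gene of this list at 2.01, and the partner genes PROC and THBD of PROCR were detected in at most 0.687% and 2.75% of cells.

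The lists of cell type markers were counted in the same test. Of 8 tested basal markers 4 rose and 1 fell, and of 7 tested luminal markers 1 rose and 4 fell, against 12.4% of all genes called, with median log2 fold changes of 0.46 and -0.74. The summed luminal level went the other way from that tally, with 31 and 34.7 counts per 10000 at low and 41.7 and 37.9 at high resolution, and KRT7 made up most of it. Of the fibroblast, endothelial and immune markers 2 each were tested, of which 1 fibroblast marker rose, 1 endothelial marker rose and 1 fell, and 1 immune marker fell. These marker sums moved with the same contrast as the 5 genes, and their part in it was not tested.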

How the data were processed

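Single-cell RNA of 4 plates was measured by SORT-seq, and 1 table of expected counts per plate was deposited by the authors. Per the submitters' processing notes, STAR 2.7.3a, Seurat 4 and hg38 were used, and the annotation is not given in the sources used here. The deposited expected counts were UMI counts corrected by the authors for collisions among 4096 molecular identifiers. Undoing this gave whole UMIs for all 7245730 values above 0 (largest gap 4.55e-13). The study's limits (2000 to 9000 features per cell, mitochondrial share below 40%) were applied and left fewer cells than it analysed. Doublets were not called. Spike-ins were left out.

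Levels are corrected counts per 10000 transcripts, and correlations are Spearman's rho per plate. Whole UMIs were used to thin cells to 10000 UMIs. Corrected counts, rounded, were summed by plate and tested with edgeR 4.0.16 (R 4.3.3, TMM, filterByExpr, quasi-likelihood, Benjamini-Hochberg, threshold 0.05), with DESeq2 1.42.0 as an alternative. On simulated counts with 200 genes changed 2-fold, the edgeR comparison of the experiments recovered 81.5% at a dispersion of 0.01 (12287 genes) and 13% at 0.05 (12246 genes). False calls numbered 10 and 1. The dispersion of the data themselves is not given, so these shares do not tell the recovery in the data. The panel score used genes seen in at least 5% of cells. Cell-cycle lists came from Seurat 5.3.0. Binomial intervals are exact at 95%. Named genes were the 5 markers, CDH1 and FN1, the 3 genes most and least like each marker, and in each list up to 4 genes of the highest mean level and the called genes of largest change, of which 1 gene is not reported here, while ALDH1A1, ENTPD1, HAS1 to HAS3, PROC and THBD were chosen after their values were seen. Promoters came from RefSeq, without chromosome 8. The members and gene lists were chosen with earlier results of these data known. Replicate numbers did not pair the plates: the deviations of replicate 1 from its group mean had a correlation of -0.024 between the experiments over 12429 genes.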

Additional observations from a re-analysis of the deposited data

Results flagged for a closer look

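Transcripts of the markers were also found in the 222 wells that had under 2000 detected features and entered no comparison. Over these wells 97 UMIs of CD44, 604 of CD24, 84 of NT5E and 83 of ALDH1A3 were counted, each above 3 counts, the upper limit on the expected count where 0 are seen. PROCR had 3 UMIs there. The wells hold no labelled control, and the source of these UMIs was not tested.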

How the results depend on the processing

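Of 358 alternatives, 301 kept the direction and side of the threshold or moved a value by less than the spread between plates. NT5E, ALDH1A3 and PROCR kept their calls between the experiments under each alternative run, with DESeq2 among them. Their log2 fold changes over these runs were 1.10 to 1.29, -0.98 to -0.69 and 0.82 to 1.27. With each plate left out in turn they were 1.10 to 1.22, -0.98 to -0.69 and 0.82 to 1.21. CD44 ranged from 0.30 to 0.44 without a plate and was then never called. CD24 ranged from -0.55 to -0.0845 without a plate, and it was called without high-resolution replicate 1 and, with no filter on low counts, at -0.30 (edgeR adjusted p = 0.0351). The number of called genes was 1546, ranged from 987 to 1323 without a plate, and was 1010 after thinning, where 10454 genes were tested. It was 1050 with DESeq2, 1569 with RLE factors, 2143 without the filter, and 2008 with the replicate block. Replicate numbers did not pair the plates, and with the block NT5E was at 1.16, ALDH1A3 at -0.84, PROCR at 1.00, CD44 at 0.36 (edgeR adjusted p = 0.0307) and CD24 at -0.33 (0.0635). Within tertiles of the panel score the block brought CD24 (0.49, adjusted p = 0.0491) and PROCR (1.10, 0.049) of the middle tertile past the threshold.

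Within tertiles, leaving out a plate turned signs, with ranges of -0.32 to 0.12 for ALDH1A3 in the lower and -0.30 to 0.11 in the middle tertile, and in the upper tertile of -0.11 to 0.0673 for CD44, -0.23 to 0.13 for CD24 and -0.0067 to 0.14 for PROCR. CD24 of the upper tertile was at 0.02 without high-resolution replicate 2. None of these was called. With no filter, the NT5E differences of the lower and upper tertiles passed (edgeR adjusted p = 0.0107 and 0.0216), as did PROCR (0.0177) and CD24 (0.53, adjusted p = 0.000748) of the middle tertile. With DESeq2 CD24 of the middle tertile passed as well (0.53, adjusted p = 0.0386), a difference opposite in sign to that of CD24 over all cells.

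Thinning to 10000 UMIs made the correlations smaller. The mean rho with CDH1 became -0.309 for CD44, 0.461 for CD24, -0.339 for NT5E, 0.429 for ALDH1A3 and -0.147 for PROCR, and with FN1 0.435 for CD44, 0.469 for NT5E and -0.516 for ALDH1A3, while ALDH1A3 with NT5E had -0.491 and CD44 with CD24 -0.405. Partial on total count and mitochondrial share, rho was -0.419 for CD44 with CDH1, 0.522 for CD44 with FN1, 0.577 for CD24 with CDH1, 0.588 for ALDH1A3 with CDH1, -0.511 for ALDH1A3 with NT5E and -0.405 for CD44 with CD24. With mitochondrial genes left out of the total, the levels became 4.03 for CD44, 21.3 for CD24 and 2.67 for ALDH1A3.

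The difference in FN1 between CD44-high CD24-low and CD44-low CD24-high cells was 1.5 with no mitochondrial limit and 1.46 after thinning, where the share of CD44-high CD24-low cells was 29.98%. The product of the shares was then 18.8% to 23.8% per plate. The share was 1.27 to 1.46 times that product, against 1.27 to 1.49 times without thinning. With mitochondrial genes left out the differences were 1.73 for FN1, -0.665 for CDH1 and -1.30 for ALDH1A3. With the quartile cut the share was 11.4% and the differences 1.95 for FN1, 1.42 for NT5E, 0.111 for PROCR, -0.619 for CDH1 and -1.35 for ALDH1A3. Some alternatives had smaller samples or fewer tested genes, and the causes of the changes were not tested. PROCR rests on 51 to 165 UMIs per plate, which limits its precision.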
